A study of Mus musculus with 8 samples.

Results

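The genes described are Trem2 and 9 others that macrophages use around dying fat cells: Tyrobp, Gpnmb, Cd9, Lgals3, Dcstamp, Slc37a2, Cd5l, Acp5 and Nceh1. They were chosen by name, with earlier results of these data known. Each was read by 1 probe set annotated to it alone, so that all 10 were measured among 18820 genes. RNA came from the epididymal white adipose tissue of male C57BL/6 mice, a depot of visceral fat. Of 8 arrays, 4 came from wild-type (WT) mice bought from the Jackson Laboratories and 4 from IL37-overexpressing transgenic mice (IL37TG), an existing line that carries a transgene for human interleukin-37, an anti-inflammatory relative of interleukin-1. Both groups ate low-fat chow (10% of energy as fat) for 2 weeks, followed by 16 weeks on high-fat chow (45% of energy as fat). The promoter that drives the transgene, the ages of the mice and whether each array came from a separate mouse are not given in the sources used here. Since the groups also differed in where the mice came from, genotype and colony cannot be told apart, and the p-values reflect array-to-array spread alone, which may be technical.

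In obese fat, macrophages gather around dead or dying adipocytes in rings called crown-like structures, take up the lipid that is released and become loaded with it. TREM2 is a surface receptor of these cells that binds lipids and lipoproteins. It has no signalling tail of its own and passes its signal on through the adaptor DAP12, the product of Tyrobp. Macrophages of this state are known to carry more of GPNMB, CD9 and galectin-3, and to raise lysosomal and lipid-handling genes.

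All values are log2 expression levels, so that a difference of 1 is a change of 2-fold, and differences are transgenic minus wild type. The median of each array ranged from 5.97 to 6.04. The tissue labels were borne out by the 8 measured adipocyte markers, whose mean was between 11.71 and 12.01 in every array. A few arrays stood apart. Wild-type replicate 3 had a mean of 13 general macrophage markers of 9.14, against 9.58 to 9.91 in the other wild-type arrays and 8.86 to 9.17 in the transgenic arrays. It and transgenic replicate 3 had the highest means of 5 B cell markers, at 7.11 and 7.04, where the remaining arrays lay between 5.79 and 6.49. Transgenic replicate 4 had the lowest macrophage marker mean, at 8.86. It also had high levels of testis genes, with the sperm protamine Prm1 at 11.97 (4.79 to 7.64 in the remaining arrays) and the germ cell helicase gene Ddx4 at 6.39 (3.34 to 3.88). The part of these cells and tissues in the results was not tested, and results are therefore also given without these 2 arrays, wild-type replicate 3 and transgenic replicate 4.

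The question was how this set of macrophage genes differed between obese transgenic and obese wild-type fat. Trem2 fell 4.04-fold in transgenic fat. Gpnmb, Slc37a2, Nceh1 and Lgals3 had lower values in every transgenic array than in any wild-type array, by 2-fold to 4.12-fold, but missed the threshold. Tyrobp, Cd9 and Dcstamp differed by less and their groups overlapped, while Acp5 and Cd5l were at nearly the same level in both groups. Thus 1 of 10 was called lower (limma, Benjamini-Hochberg adjusted p at most 0.05), where 1.27% of all genes tested were, and 0 of 10 were called higher, where 2.07% were. At an unadjusted limma p of 0.05, 6 of 10 were lower, where 9.42% of all genes were, and 0 were higher, where 11.2% were. The median difference of the 10 was -0.77, against 0.02 over all genes. In 5 of 10 the groups did not overlap with the transgenic arrays lower, which held for 5.73% of all genes. Because the 10 were chosen with earlier results of these data known, the shares beside all genes are descriptions and no test of the set. In whole tissue, fewer cells of a type and less RNA per cell cannot be told apart.

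**Figure D1:**
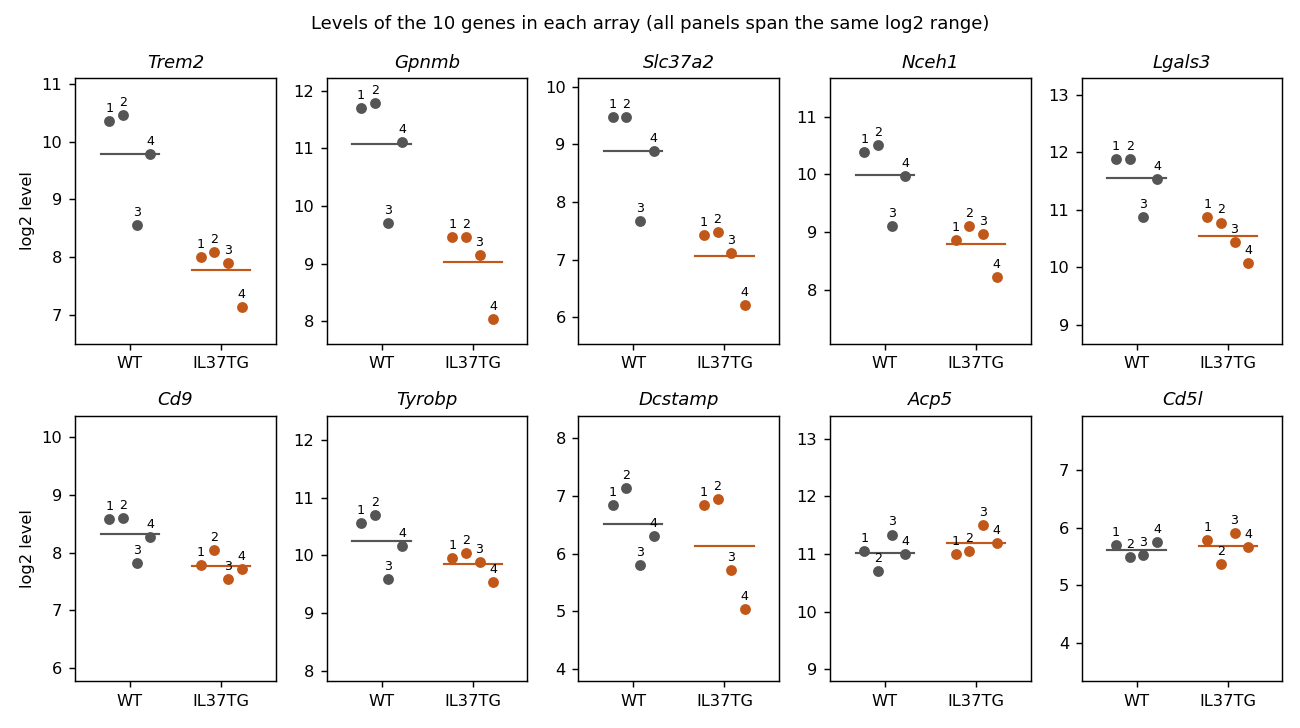
Log2 level of each of the 10 genes (y axis) in the 4 wild-type (WT, grey) and 4 transgenic (IL37TG, orange) arrays; each point is 1 array with its replicate number, bars are group means, and every panel spans the same log2 range. In the upper row no transgenic array reaches a wild-type array, wild-type replicate 3 is the lowest wild-type point and transgenic replicate 4 the lowest of all, whereas Acp5 and Cd5l are level.

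Trem2 (probe set 10445781) encodes the lipid receptor itself. Its level was 10.36, 10.46, 8.56 and 9.79 in wild-type replicates 1 to 4, and 8.00, 8.08, 7.90 and 7.14 in transgenic replicates 1 to 4. The lowest wild-type array, replicate 3, was still above the highest transgenic array, and 3 of the 4 transgenic arrays lay within a narrow range. The means were 9.79 ± 0.87 and 7.78 ± 0.43 (SD, n = 4 per group), a difference of -2.02 (SE 0.42, 95% interval -2.98 to -1.06, limma adjusted p = 0.0454). The difference was -2.43 without wild-type replicate 3 (limma adjusted p = 0.0083), -1.80 without transgenic replicate 4 (adjusted p = 0.0912) and -2.22 without both (adjusted p = 0.0101). Leaving out replicate 3, the lowest wild-type array, was bound to widen it. On leaving out 1 array in turn the adjusted p ran from 0.0083 to 0.126, and the call held in 1 of 8 cases, that without wild-type replicate 3.

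Tyrobp (probe set 10551883), the DAP12 adaptor through which TREM2 and many other myeloid receptors signal, differed less. Its level was 10.56, 10.70, 9.59 and 10.16 in the wild-type arrays and 9.96, 10.04, 9.88 and 9.54 in the transgenic arrays, in order of replicate. Wild-type replicate 3 lay among the transgenic arrays. The difference was -0.39 (SE 0.24, 95% interval -0.94 to 0.15, limma adjusted p = 0.391), an interval that does not reach the value of Trem2. It was -0.51 without both arrays named above (adjusted p = 0.1).

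Gpnmb (probe set 10538187) encodes a transmembrane glycoprotein that loaded and stressed macrophages place on their lysosomes and surface. The wild-type levels were 11.70, 11.79, 9.70 and 11.11, and the transgenic levels 9.47, 9.46, 9.15 and 8.04. The groups were separated by a small gap, between wild-type replicate 3 and transgenic replicate 1. The means were 11.07 ± 0.97 and 9.03 ± 0.68 (SD, n = 4 per group; difference -2.04, SE 0.51, 95% interval -3.21 to -0.88, limma adjusted p = 0.0704). Without wild-type replicate 3 the difference was -2.50 (adjusted p = 0.0144), without transgenic replicate 4 -1.71 (adjusted p = 0.127), and without both -2.17 (adjusted p = 0.0116).

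Lgals3 (probe set 10414360) encodes galectin-3, a sugar-binding protein that macrophages secrete and that gathers on damaged lysosomes. The wild-type levels were 11.88, 11.89, 10.88 and 11.54, and the transgenic levels 10.88, 10.78, 10.45 and 10.07. Wild-type replicate 3 and transgenic replicate 1 were level to the second decimal, though the groups did not overlap. The difference was -1.0 (SE 0.26, 95% interval -1.60 to -0.41, limma adjusted p = 0.0773), and it was -1.07 without both arrays (adjusted p = 0.0169). On leaving out 1 array the limma adjusted p ran from 0.0188 to 0.194, passing only without wild-type replicate 3. Cd9 (probe set 10548030), a tetraspanin of the cell surface and of exosomes that is also present on adipocyte progenitors, had wild-type levels of 8.59, 8.6, 7.82 and 8.27 and transgenic levels of 7.79, 8.04, 7.55 and 7.71. Here transgenic replicate 2 was above wild-type replicate 3. The difference was -0.55 (SE 0.18, 95% interval -0.97 to -0.12, limma adjusted p = 0.146).

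Among the genes of lipid and phosphate handling, Slc37a2 (probe set 10592266), an endoplasmic reticulum sugar-phosphate exchanger abundant in macrophages, had wild-type levels of 9.48, 9.48, 7.67 and 8.88 and transgenic levels of 7.43, 7.48, 7.11 and 6.21. The groups did not overlap, and replicates 1 and 2 of the wild type stood highest. The difference was -1.82 (SE 0.45, 95% interval -2.84 to -0.80, limma adjusted p = 0.0685), or -1.94 without both arrays (adjusted p = 0.0116). On leaving out 1 array the limma adjusted p ran from 0.0142 to 0.177, passing only without wild-type replicate 3. Nceh1 (probe set 10491083), an enzyme that hydrolyses cholesterol esters in foam cells, had wild-type levels of 10.38, 10.51, 9.11 and 9.97 and transgenic levels of 8.86, 9.10, 8.97 and 8.22. Wild-type replicate 3 and transgenic replicate 2 were nearly level. The difference was -1.20 (SE 0.32, 95% interval -1.94 to -0.46, limma adjusted p = 0.083), or -1.31 without both arrays (adjusted p = 0.0124). On leaving out 1 array the limma adjusted p ran from 0.0154 to 0.206, and again passed only without wild-type replicate 3.

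Dcstamp and Acp5 belong to the osteoclast and multinucleated macrophage programme. Dcstamp (probe set 10423894), a membrane protein needed for macrophage fusion, had wild-type levels of 6.84, 7.14, 5.80 and 6.30 and transgenic levels of 6.84, 6.94, 5.71 and 5.04. Transgenic replicates 1 and 2 were as high as the upper wild-type arrays, and the transgenic arrays spread more widely (SD 0.92) than those of any other of the 10 genes. The difference was -0.39 (SE 0.47, 95% interval -1.46 to 0.69, limma adjusted p = 0.679). Its mean lay below the median gene mean of 6.74, and it was not shown to be above background. Acp5 (probe set 10591739), the tartrate-resistant acid phosphatase used as an osteoclast marker, had wild-type levels of 11.06, 10.70, 11.34 and 11.01 and transgenic levels of 11.01, 11.05, 11.50 and 11.19. The groups overlapped, with replicate 3 highest in each, and the difference was 0.16 (SE 0.15, 95% interval -0.19 to 0.51, limma adjusted p = 0.593). Cd5l (probe set 10492964), a secreted scavenger protein that tissue macrophages make under control of the LXR receptors, ranged from 5.49 to 5.75 in wild-type and from 5.37 to 5.91 in transgenic fat. The difference was 0.07 (SE 0.12, 95% interval -0.21 to 0.35, limma adjusted p = 0.794), and its levels too lay below the median gene mean. The interval of Acp5 leaves no room for a fall of the size of Trem2. For Cd5l no such reading is made, because its level was not shown to be above background.

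**Figure D2:**
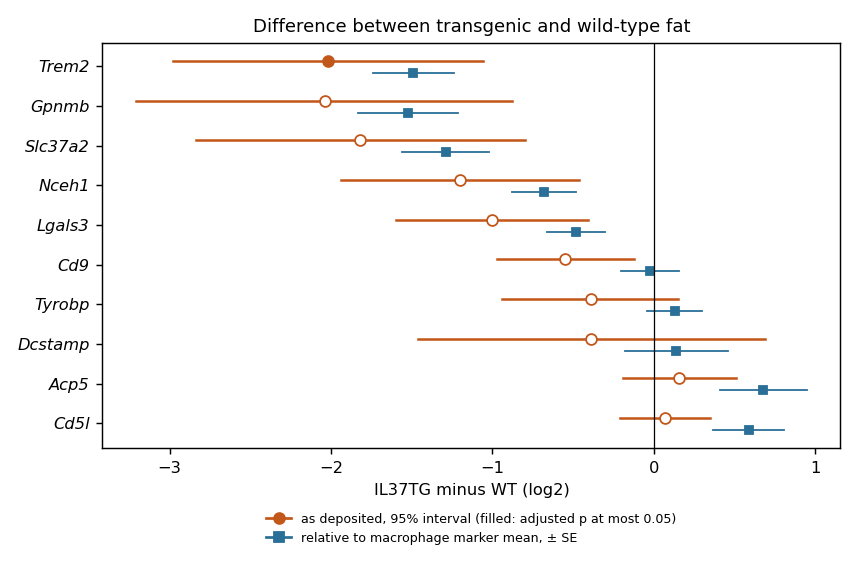
Transgenic minus wild-type difference (x axis, log2) for the 10 genes. Orange circles are the deposited levels with 95% intervals (filled where the limma adjusted p was at most 0.05), and blue squares are the levels relative to the mean of 13 macrophage markers with ± SE. From Trem2 to Lgals3 both estimates lie below 0, while Cd9 and Tyrobp are at -0.02 and 0.13 relative to the markers.

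Promoter windows are shown for 4 of the genes whose groups did not overlap and for Acp5, which was level. Lgals3, whose groups did not overlap either, had a window without a match to any of the motifs below, and it is not printed. The windows of Cd9 and Cd5l also held no match. All windows run from 250 bases before to 30 bases after a RefSeq transcription start (GRCm38.p6), and were found for 8 of the 10 genes. Those shown are Trem2 (chr17:48346151-48346430, plus strand), Gpnmb (chr6:49036268-49036547, plus strand), Slc37a2 (chr9:37255709-37255988, minus strand), Nceh1 (chr3:27182754-27183033, plus strand) and the start of Acp5 at chr9:22130569-22130848, minus strand, chosen among its 3 windows as the one with matches. Capitals mark matches on either strand to any of 5 motifs: the AP-1 site TGANTCA, read by Fos, Jun and Maf factors; the E-box CACGTG and the M-box core TCACATG, read by MITF and its relatives; the ETS site GGAAGT, which holds the core read by PU.1; and the nuclear receptor half-site AGGTCA. The motifs were chosen with these windows in view.
Trem2: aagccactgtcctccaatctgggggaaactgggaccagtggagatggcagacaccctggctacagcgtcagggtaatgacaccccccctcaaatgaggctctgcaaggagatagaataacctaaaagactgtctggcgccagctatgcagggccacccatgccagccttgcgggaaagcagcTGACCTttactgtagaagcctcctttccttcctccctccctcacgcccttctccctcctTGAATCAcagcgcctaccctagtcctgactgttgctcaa
Gpnmb: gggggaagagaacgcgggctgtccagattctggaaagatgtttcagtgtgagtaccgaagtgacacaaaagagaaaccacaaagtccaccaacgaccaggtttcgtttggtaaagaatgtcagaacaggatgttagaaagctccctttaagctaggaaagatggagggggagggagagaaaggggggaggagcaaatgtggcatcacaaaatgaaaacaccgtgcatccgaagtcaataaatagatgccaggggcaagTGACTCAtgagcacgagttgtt
Slc37a2: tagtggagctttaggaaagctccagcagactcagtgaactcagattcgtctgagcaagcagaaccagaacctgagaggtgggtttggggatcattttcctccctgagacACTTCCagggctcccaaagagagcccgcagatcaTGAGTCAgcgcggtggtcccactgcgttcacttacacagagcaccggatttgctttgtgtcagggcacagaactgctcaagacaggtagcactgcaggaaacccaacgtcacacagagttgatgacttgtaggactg
Nceh1: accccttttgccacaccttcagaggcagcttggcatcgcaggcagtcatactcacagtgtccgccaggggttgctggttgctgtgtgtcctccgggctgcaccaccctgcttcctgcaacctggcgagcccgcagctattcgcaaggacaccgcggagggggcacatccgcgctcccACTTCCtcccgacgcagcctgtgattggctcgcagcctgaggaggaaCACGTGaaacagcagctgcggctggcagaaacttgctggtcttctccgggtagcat
Acp5: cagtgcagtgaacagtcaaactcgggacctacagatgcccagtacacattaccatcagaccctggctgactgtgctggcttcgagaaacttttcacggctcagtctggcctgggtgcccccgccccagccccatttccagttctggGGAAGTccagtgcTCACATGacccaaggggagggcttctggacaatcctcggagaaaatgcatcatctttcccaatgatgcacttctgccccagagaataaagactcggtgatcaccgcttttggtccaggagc

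Trem2, Gpnmb and Slc37a2 each hold a match to the AP-1 motif TGANTCA. Its first base lies at -9 from the start site in Trem2 (TGAATCA), at 9 in Gpnmb (TGACTCA) and at -107 in Slc37a2 (TGAGTCA). The motif accepts any base at N, which is A in Trem2, C in Gpnmb and G in Slc37a2. Of the 10 windows of 8 genes, 3 held this motif, against 7.5% of 32851 promoter windows of the same length. Because the motifs were chosen with these windows in view, the shares given here and below are descriptions. Whether any motif was more frequent in these windows was not tested. Nceh1 holds an E-box at -26 and an ETS site on the opposite strand at -73. The E-box was in 1 of 10 windows and in 6.8% of all windows, and the ETS site in 3 of 10 and in 22.3%. The Acp5 window holds an M-box core at -91 and an ETS site at -104. The M-box core was in 1 of 10 and in 3.8%, and the half-site, found on the opposite strand in Trem2 at -68, in 1 of 10 and in 15.3%. No listed motif shares bases with another in these windows. A match is a description of letters and not of a bound factor.

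Across the 8 arrays, 5 of the 10 genes varied closely together. Trem2, Gpnmb, Slc37a2, Nceh1 and Lgals3 had Pearson correlations of at least 0.98 in each of their 10 pairs. Trem2 correlated with Gpnmb at r = 0.99 (exact permutation p = 4.96e-05, Benjamini-Hochberg adjusted p = 0.000223 over 9 relations) and at Spearman's rho = 0.98 (exact permutation p = 0.000397, adjusted p = 0.000893). With Slc37a2 r was 0.99 (exact permutation p = 4.96e-05, adjusted p = 0.000223), with Nceh1 0.99 (exact permutation p = 9.92e-05, adjusted p = 0.000279) and with Lgals3 0.98 (exact permutation p = 0.000124, adjusted p = 0.000279), and rho was 0.98 for each of the 3 (exact permutation p = 0.000397, adjusted p = 0.000893). Part of these correlations is the difference between the groups. The permutations exchanged arrays across the groups, so the p-values include that difference. No p-value was computed for the correlations with group means subtracted. With each group's mean subtracted, the 10 pairs still ran from 0.93 upward. The 2 arrays farthest from the median of Trem2 were wild-type replicates 1 and 2, and without them r with Gpnmb, Slc37a2, Nceh1 and Lgals3 was 0.98, 0.98, 0.97 and 0.96 over 6 arrays. Genes outside the set had correlations with Trem2 as high as these. In order of r with Trem2 among 18819 genes, Slc37a2 was at place 14, Gpnmb at 16, Nceh1 at 27 and Lgals3 at 53.

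Tyrobp and Cd9 followed Trem2 more loosely. Tyrobp correlated with Trem2 at r = 0.87 (exact permutation p = 0.00397, adjusted p = 0.00595) and rho = 0.86 (exact permutation p = 0.0107, adjusted p = 0.0161), with r = 0.60 without wild-type replicates 1 and 2. With group means subtracted r was 0.99, while the difference between groups was -0.39 against -2.02. That r was not particular to the pair. In order of r with Trem2 among 18819 genes, Tyrobp was at place 28 with group means subtracted and at 921 over the 8 arrays. Cd9 correlated at r = 0.93 (exact permutation p = 0.00241, adjusted p = 0.00433) and rho = 0.95 (exact permutation p = 0.00114, adjusted p = 0.00205), with 0.78 over the 6 arrays and 0.86 with group means subtracted. In the same order Cd9 was at place 500 over the 8 arrays and at 1079 with group means subtracted, so many other genes followed Trem2 as closely. Dcstamp did not pass by r (0.63, exact permutation p = 0.0941, adjusted p = 0.121) or by rho (0.74, exact permutation p = 0.0458, adjusted p = 0.0589). Acp5 had negative values that did not pass (r = -0.60, exact permutation p = 0.115, adjusted p = 0.13; rho = -0.60, exact permutation p = 0.132, adjusted p = 0.149). Cd5l had no clear relation (r = -0.15, exact permutation p = 0.715, adjusted p = 0.715; rho = -0.36, exact permutation p = 0.389, adjusted p = 0.389).

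**Figure D3:**
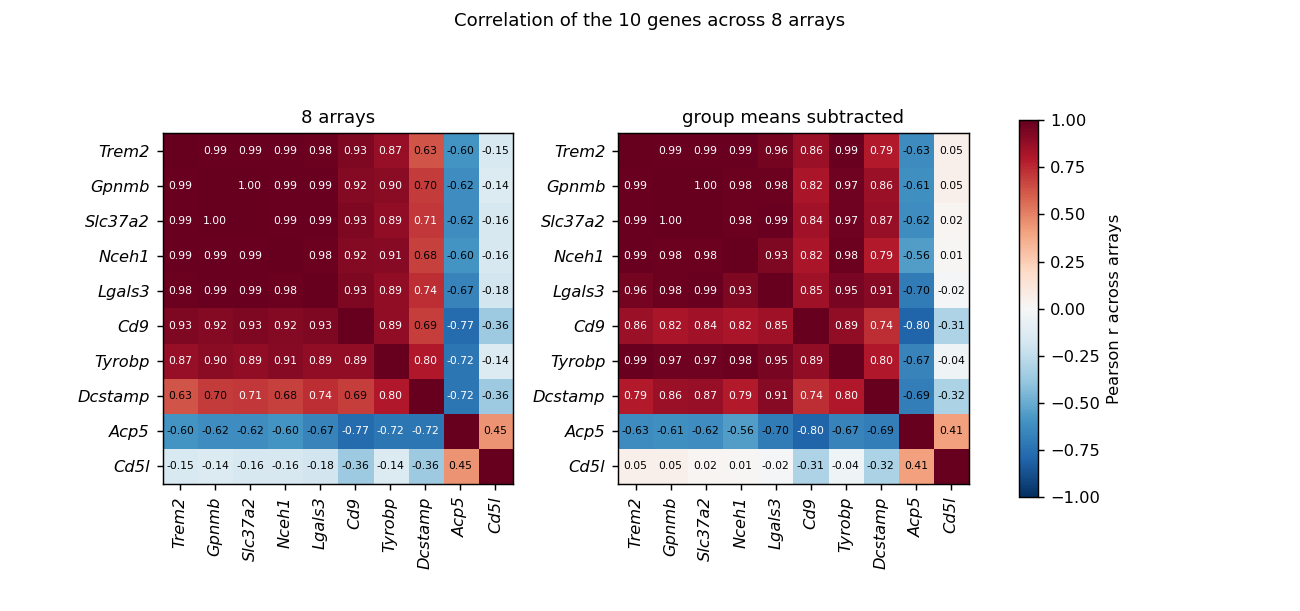
Pearson correlation across 8 arrays for each pair of the 10 genes (colour and number; red positive, blue negative), over the deposited levels at left and with each group's mean subtracted at right. The first 5 genes have values of at least 0.93 in both panels, while Acp5 is negative against 8 genes and Cd5l is near 0 against Trem2.

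The genes whose levels were most like Trem2 over the 8 arrays, outside the 10, were Clec12a, an inhibitory lectin receptor of myeloid cells (r = 0.998), Apbb1ip, an adaptor that activates integrins (0.997), Myo1e, a membrane-linked myosin (0.996), Apobec1, an RNA-editing deaminase (0.996), and Stap1, a signalling adaptor (0.995). Of these, Clec12a (difference -1.28, limma adjusted p = 0.0469), Myo1e (-1.17, adjusted p = 0.0486) and Apobec1 (-1.20, adjusted p = 0.045) were past the threshold. The choice by r used the group difference of Trem2 and so largely fixed this direction. Each had a smaller difference than Trem2. With group means subtracted the first 5 were Plekho1, Hmga2, Dock2, Sh3bp2 and Myo1f, with r from 0.994 to 0.998. None of these 5 passed, and in Plekho1 (difference -0.48), Dock2 (-0.53), Myo1f (-1.0) and Hmga2 (-0.41) the groups overlapped.

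The general macrophage markers moved with Trem2, and the 10 genes were therefore also read relative to them. Of 13 measured markers, 2 fell (Cx3cr1, difference -0.63, limma adjusted p = 0.0231, and Fcgr1, -1.09, adjusted p = 0.0469) and none rose, with a median difference of -0.53. Without wild-type replicate 3, 9 of 13 were called lower, where 668 of 18820 genes were. Without transgenic replicate 4, 0 of 13 and 83 of all genes were, and without both, 7 of 13 and 491 of all genes. Wild-type replicate 3 had the lowest marker mean of its group, so leaving it out was bound to widen the fall of that mean. The same counts over all genes stand beside the lists below. Wild-type replicate 3 had a marker mean of 9.14 and transgenic replicates 1, 2 and 3 each had one of 9.17. At this matched marker level Trem2 was 8.56 in the wild-type array and 8.00, 8.08 and 7.90 in the transgenic arrays. Tyrobp, in the same arrays, was 9.59 in the wild-type and 9.96, 10.04 and 9.88 in the transgenic arrays. These are single arrays, and no test was made of them.

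With the marker mean of each array subtracted, Trem2 was at 0.52, 0.55, -0.58 and 0.21 in the wild-type arrays and at -1.17, -1.09, -1.28 and -1.71 in the transgenic arrays. The groups did not overlap, and the difference was -1.49 (SE 0.25), from -1.74 to -1.36 on leaving out 1 array. The differences were -1.52 for Gpnmb, -1.29 for Slc37a2, -0.68 for Nceh1 and -0.48 for Lgals3. The transgenic arrays were below all wild-type arrays in these 5 of 10 genes, where 0.563% of all genes were. Before the subtraction the share of all genes was 5.73%, and the same 5 genes were below. The share shrank because the reference itself was lower in the transgenic arrays. Cd9 and Tyrobp were level with the markers, at -0.02 (SE 0.18) and 0.13 (SE 0.17). Acp5 (0.68) and Cd5l (0.59) stood higher relative to the markers, but so did 59.3% of all genes at a limma adjusted p of at most 0.05 and the median over all genes was 0.54, because the reference itself was lower in the transgenic arrays. No adjusted p-value of a member from that fit is given.

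**Figure D4:**
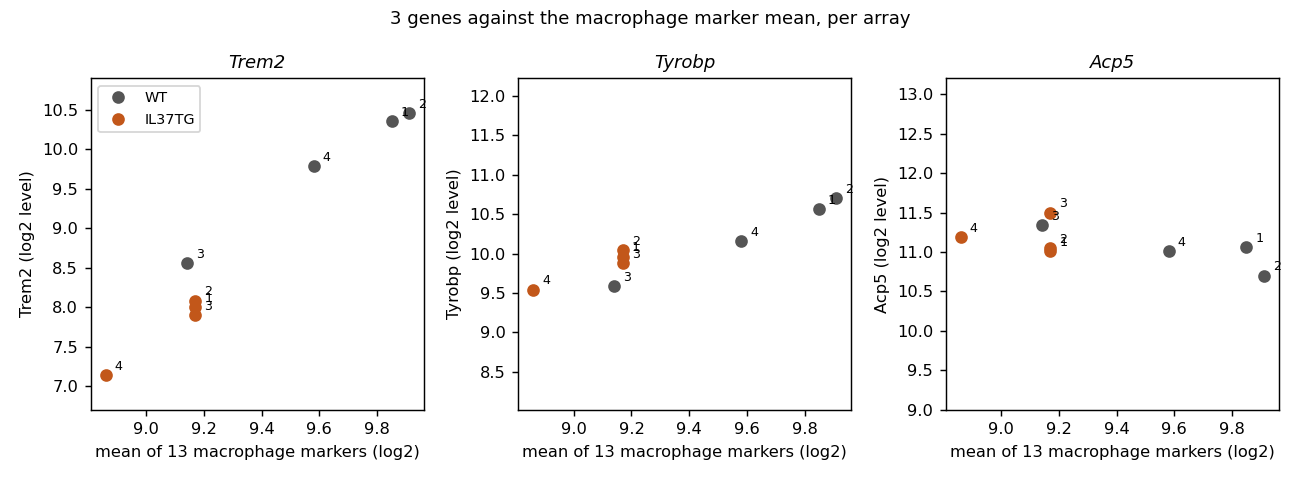
Log2 level of Trem2, Tyrobp and Acp5 (y axes, same span) against the mean log2 level of 13 macrophage markers (x axis) in each array, numbered by replicate; wild type grey, transgenic orange. At marker means of 9.14 to 9.17, wild-type replicate 3 has more Trem2 (8.56) but less Tyrobp (9.59) than transgenic replicates 1 to 3.

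The array names hold a letter and a number that were uneven between the groups. Only the letter G held both groups (wild-type replicates 3 and 4 and transgenic replicate 1), and there Trem2 differed by -1.18, Gpnmb by -0.93, Slc37a2 by -0.84, Nceh1 by -0.67 and Lgals3 by -0.33. Tyrobp differed by 0.09 and Dcstamp by 0.78 within that letter. With the letter as a block the Trem2 call ended (-1.18, limma adjusted p = 0.485). Within the numbers 5, 7 and 9, Trem2 differed by -0.48, -2.18 and -2.89, Gpnmb by -0.24, -2.25 and -3.04, and Tyrobp by 0.45, -0.47 and -0.94. The number 5 held wild-type replicate 3 and transgenic replicate 2 alone. With the number as a block Trem2 was at -1.98 (limma adjusted p = 0.121).

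The genes around the TREM2 receptor were mostly not called. Of 13 measured genes of DAP12 signalling and receptor shedding, 0 fell and 0 rose, though 7 were lower at an unadjusted limma p of 0.05 (median difference -0.41). Adam17, a protease that sheds TREM2 (-0.50, limma adjusted p = 0.089), and Ptpn6, an inhibitory phosphatase of myeloid cells (-0.51, adjusted p = 0.118), had the lowest p. The kinase Syk, which DAP12 recruits, differed by -0.24 (adjusted p = 0.637). Without wild-type replicate 3, 8 of the 13 were called lower, and without both arrays 6. None of 10 other TREM genes and DAP12-coupled receptors was called (unadjusted p of 0.05, 4 lower and 1 higher by limma). Pilrb1, an activating receptor that pairs with DAP12, had the lowest p and was higher in every transgenic array (0.50, SE 0.12, limma adjusted p = 0.0593). Cd300lb, a lipid-binding receptor of myeloid cells, differed by -1.11 (limma adjusted p = 0.134). Trem1, the inflammatory receptor of the family, had means of 3.65 and 3.67, under 4.49, the 25th percentile over all genes, and Trem3 was close to it at 4.54 and 4.51, so that little can be read from their differences. Of 10 lipid ligands and uptake genes none was called (unadjusted p of 0.05, 3 lower and 1 higher by limma). Apoe, a ligand of TREM2, had a wild-type mean of 12.49 ± 0.05 and a transgenic mean of 12.68 ± 0.08 (SD, n = 4 per group; limma adjusted p = 0.126), while the scavenger receptor Msr1 differed by -1.01 (adjusted p = 0.0801).

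Other genes of lipid-loaded macrophages lay further below 0. Of 17 measured, 3 fell and none rose: the cathepsin Ctsk (-1.25, SE 0.27, limma adjusted p = 0.0496), the lysosomal tetraspanin Cd63 (-0.43, SE 0.09, adjusted p = 0.0486) and the progranulin gene Grn (-0.41, SE 0.09, adjusted p = 0.0486). In this list 14 of 17 were lower at an unadjusted p of 0.05 by limma, and the median difference was -0.64. Leaving out wild-type replicate 3 gave 11 calls, leaving out transgenic replicate 4 gave 0, and leaving out both gave 9. The largest difference in the list, singled out after its values were seen, was that of Atp6v0d2, a proton pump subunit of macrophages and osteoclasts. It ranged from 9.67 (replicate 3) to 11.68 in the wild-type arrays and was at 9.10, 9.25, 8.81 and 6.53 in the transgenic arrays (difference -2.55, SE 0.67, limma adjusted p = 0.0808). Transgenic replicate 4 was far below the other transgenic arrays.

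Of 10 genes of cholesterol ester handling other than Nceh1, none fell and 1 rose, Cyp27a1, the mitochondrial sterol hydroxylase (0.52, SE 0.09, limma adjusted p = 0.0245). Lipa, the lysosomal lipase that frees cholesterol from its esters, differed by -0.84 (adjusted p = 0.075), and the lipid droplet coat gene Plin2 by -0.39 (adjusted p = 0.107). The LXR gene Nr1h3 (-0.01) and the exporter gene Abca1 (0.01) were level. Without wild-type replicate 3, and also without both arrays, 4 of the 10 were called lower.

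Of 16 fusion and osteoclast genes, 3 fell and 1 rose. The integrin Itgav (-0.49, limma adjusted p = 0.017), the CD47 receptor Sirpa (-0.88, adjusted p = 0.0416) and Ctsk fell, and the gelatinase Mmp9, an osteoclast protease that neutrophils also carry, rose (1.29, adjusted p = 0.029). Without transgenic replicate 4, 1 fell and 0 rose; without wild-type replicate 3, 6 fell and 1 rose; and without both, 5 fell and 1 rose. Mmp9 was at 6.07, 5.88, 6.46 and 6.34 in the wild-type arrays and 7.26, 7.03, 8.11 and 7.51 in the transgenic arrays, the opposite direction to Trem2 without overlap. Of 10 MiT/TFE transcription factors, which control lysosome genes including Gpnmb, and their regulators, 2 fell: Tfec, the family member restricted to macrophages (-0.81, SE 0.13, limma adjusted p = 0.0212), and Rragd, a lysosomal GTPase (-0.86, SE 0.16, adjusted p = 0.0351). The transgenic mean of Rragd, 4.42, was under 4.49, the 25th percentile over all genes, so that its difference may be understated. Mitf differed by -0.45 (limma adjusted p = 0.271), Tfeb by -0.24 and Tfe3 by -0.26. Without wild-type replicate 3 the calls were 7 of 10 lower, without transgenic replicate 4 they were 1, and without both 4.

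The families of single members were read in the same way. Of 12 tetraspanins and CD9 partners, Cd63 alone fell, and the closest surface relative, Cd81, differed by -0.02 (limma adjusted p = 0.842). Of 6 genes around galectin-3, Lgals12, a galectin of fat cells, rose (0.32, SE 0.05, adjusted p = 0.0215) and Lgals1 differed by 0.06. Without transgenic replicate 4 neither Cd63 nor Lgals12 was called, and none of the other genes of these lists was. None of 3 relatives of Slc37a2 was called by limma (0 at an unadjusted p of 0.05), with Slc37a1 at -0.19 and Slc37a4, the glucose-6-phosphate transporter of glucose production, at -0.10. The list around Cd5l held 12 genes, which were tissue macrophage genes and, besides these, Cd5 and Cd6. Of the 12, Cd163, the haemoglobin scavenger receptor, rose (0.77, SE 0.12, limma adjusted p = 0.0212) and Hmox1, the haem oxygenase, fell (-0.78, SE 0.08, adjusted p = 0.00535). Hmox1 was between 9.48 and 9.78 in wild-type and between 8.80 and 8.91 in transgenic fat, without overlap. Without transgenic replicate 4, 1 gene of this list was called lower and 0 higher. Of the 2 measured acid phosphatases related to Acp5, neither was called by limma (at an unadjusted p of 0.05, 0 were lower and 1 higher), with Acp6 at 8.83 ± 0.19 and 8.82 ± 0.12 (SD, n = 4) and Acp1 at 0.18 (adjusted p = 0.166). Of 3 relatives and partners of GPNMB, none was called (1 lower at an unadjusted p of 0.05 by limma), with Cd44 differing by -0.75 (adjusted p = 0.181) and Sdc4 by -0.19 (adjusted p = 0.381).

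**Figure D5:**
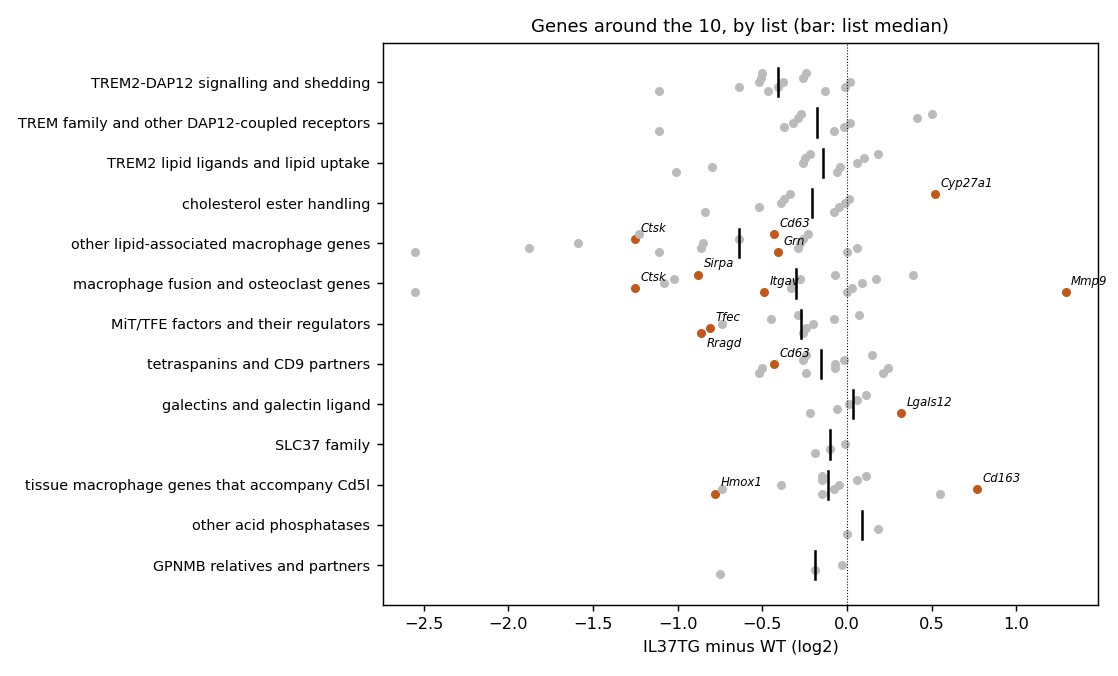
Transgenic minus wild-type difference (x axis, log2) of each measured gene in 13 lists around the 10 genes; orange and named where the limma adjusted p was at most 0.05, grey otherwise, with a bar at the list median. The list of other lipid-associated macrophage genes has its median furthest to the left, at -0.64, and Mmp9, Cd163, Cyp27a1 and Lgals12 lie to the right of 0.

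Markers of other cells were read beside these results, and their part was not tested. Of 8 adipocyte markers Adipoq and Slc2a4 rose (0.30 and 0.74, limma adjusted p = 0.0309 and 0.0188; 1 of the 8 was called without transgenic replicate 4), and the mean of the 8 was 11.71 to 11.85 in wild-type and 11.94 to 12.01 in transgenic arrays. Of 10 resident macrophage markers none was called lower and 2 were called higher. These were the chemokine gene Ccl24 (1.03, SE 0.14, limma adjusted p = 0.0149) and Cd163, given above. The list was mixed, with 4 of the 10 below 0 and a median difference of 0.09. Among those not called, Vsig4 was lower in every transgenic array (-0.74, limma adjusted p = 0.118). Timd4 was higher in every one (0.55, limma adjusted p = 0.0942), and Mrc1 differed by -0.37 (adjusted p = 0.124). Without transgenic replicate 4, 1 of these 10 was called higher. The means of the 10 overlapped (8.79 to 9.20 and 9.01 to 9.31), as did those of 7 dendritic cell markers (6.71 to 7.05 and 6.65 to 7.06), 4 monocyte markers (7.59 to 8.10 and 7.38 to 8.04), 6 mast cell markers (6.22 to 6.83 and 5.88 to 6.64) and 8 fibroblast and progenitor markers (9.77 to 10.04 and 9.65 to 9.95). Of 6 neutrophil markers S100a8 and Csf3r fell (-1.51 and -0.46, limma adjusted p = 0.028 and 0.0201). The others were not called, with Retnlg at 0.88, Cxcr2 at 0.07, S100a9 at -0.08 and Mpo at -0.15, and the list median was -0.11. Of 7 T cell markers Themis fell (-1.56, limma adjusted p = 0.00535), while Cd2 was higher in every transgenic array (0.57, adjusted p = 0.0608). Cd3d (-0.11), Cd3e (-0.21), Cd3g (-0.04), Cd4 (-0.16) and Cd8a (-0.24) were not called, and their groups overlapped. Without transgenic replicate 4, 0 neutrophil markers were called. The list means were 5.09 to 5.27 in wild-type and 4.76 to 5.26 in transgenic arrays for neutrophils, and 6.13 to 6.57 and 5.90 to 6.10 for T cells. The T cell means include Themis, the largest difference of that list, and were not computed without it.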

How the data were processed

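RNA of 8 mouse fat samples had been amplified as whole-transcript cDNA and hybridised to single-colour arrays, per the labels' protocols. The authors deposited 1 log2 level for each probe set, made with RMA (background correction, quantile normalisation, probe summary), per the submitters' processing notes; the sources used here do not give its settings or annotation. Such normalisation hides a shift shared by most genes.

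Of 35556 probe sets, 21218 had 1 gene symbol, 1881 several and 12457 none. Symbols were updated through the Entrez identifier with the gene table of GRCm38.p6, and the brightest probe set of each gene was kept, leaving 18820 genes. Groups were compared over all genes with limma 3.58.1 in R 4.3.3 (lmFit, eBayes, two-sided, no filter, Benjamini-Hochberg adjusted p at most 0.05), a step tested on simulated data. Correlations used all 40320 pairings of 8 arrays. The members and gene lists were chosen with earlier results of these data known. Of each of the 13 pathway lists the text names genes past the threshold (at most 4) or otherwise the 2 with the lowest p, and further genes and all genes of marker lists were chosen after their values were seen. The 5 genes most like Trem2 were taken by r. List genes without a probe set of their own, among them Spp1, Ctsb and Soat1, were not analysed here. Subtraction of the macrophage marker mean, and leaving out wild-type replicate 3 and transgenic replicate 4 together, were chosen after seeing the data. Replicate numbers did not pair the arrays. The alternatives tried were other normalisations, filters, probe set rules, priors, weights, blocks and thresholds and leaving out arrays. Promoter sequences came from RefSeq, and figures from matplotlib 3.10.9 in Python 3.11.15.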

Additional observations from a re-analysis of the deposited data

Results flagged for a closer look

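Among 122 groups of 4 arrays, taken from the 10 genes, the named genes and the means of marker lists, a single array lay at a distance in 8 (6.56%). About 1 in 20 is the rate by chance. None was among the 10 genes. Transgenic replicate 4 stood below the others for the general macrophage marker mean (8.86, others 9.17), for Clec12a (8.09, others 8.52 to 8.54) and for Stap1 (7.15, others 7.59 to 7.63), which are both among the genes most like Trem2. Wild-type replicate 3 stood below for Cd44 (8.25, others 9.12 to 9.28) and Pilrb1 (6.68, others 7.05 to 7.12), and above for the T cell marker mean (6.57, others 6.13 to 6.19). Transgenic replicate 3 stood above for Sdc4 (8.87, others 8.43 to 8.49) and below for the mesothelial marker mean (8.00, others 8.61 to 8.66).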

How the results depend on the processing

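The number of the 10 genes called lower, 1 as reported, was 5 among genes at or above the median gene, with array weights, at a threshold of 0.1 and without wild-type replicate 3 and transgenic replicate 4 together, and 0 over all probe sets, with the replicate block, with the letter or the number in the array name as a block and without the 2 arrays named with suffix 2. Leaving out 1 array it ran from 0 to 6. It was 6 without wild-type replicate 3 and 0 without any other array. All genes called lower, 239 as reported, were 554 among genes at or above the median gene, 539 with array weights, 53 with the replicate block, 60 with the letter and 28 with the number as a block, 5 without the arrays with suffix 2, 491 without the 2 arrays together and 680 at a threshold of 0.1; leaving out 1 array they ran from 32 to 668. Genes called higher, 390 as reported, were 741, 724, 40, 10, 44 and 13 in the first 6 of these settings and 857 at a threshold of 0.1, and leaving out 1 array they ran from 50 to 520. The filter at the median gene tests fewer genes, and leaving out arrays lowers their number; other causes were not tested.

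Trem2 was between -2.43 and -1.18 in 22 settings and lost its call in 12. Gpnmb, Slc37a2, Nceh1 and Lgals3 kept their direction in all 22 and passed in 5 each. With the letter as a block Tyrobp (0.09), Dcstamp (0.78) and Acp5 (-0.16) changed sign, relative to the macrophage marker mean Tyrobp (0.13) and Dcstamp (0.14) did, and Cd5l, from -0.01 to 0.17 on leaving out 1 array, did without transgenic replicate 3; none of these was called. The correlation of Trem2 with Cd5l was 0.02 without the 2 arrays farthest from the median of Trem2 and 0.05 with group means subtracted. Same-numbered arrays of the 2 groups had correlations of deviations from 0.057 to 0.102 and did not each correlate best with their own number, so the replicate block is no test of pairing. The number of arrays, and low signal for Cd5l, Dcstamp, Trem1 and Trem3, limit these values.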
